A study of Mus musculus with 7 samples.

Results

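The SLAM family receptors Ly9, Cd48, Cd84, Slamf7, Slamf8 and Slamf9 were examined by RNA sequencing in microglia of the dorsal hippocampus, from C57BL/6 mice of 6 to 8 weeks. The rows of these 6 genes were taken by symbol from a count table of 55401 gene identifiers. They were selected on their measured levels in the ATG7 against the EYFP libraries, so the difference between the groups in these 6 genes is a description. They were part of the fit over all genes, and where a call of a member is named it is no evidence, since the same values chose it. The dorsal dentate gyrus of all mice had been injected with AAV-RAM-Cre, which expresses Cre under an activity-dependent promoter in neurons engaged by an experience. In 4 libraries it was combined with AAV-Dio-EYFP, giving Cre-dependent EYFP, a fluorescent protein (EYFP 1 to 4). In 3 libraries it was combined with AAV-Dio-Atg7-Flag, giving Cre-dependent Flag-tagged Atg7, a gene needed for autophagy (ATG7 1 to 3). The overexpression was therefore directed at engram neurons, while the RNA came from cells enriched with magnetic beads against CD11b. The gene Atg7 itself had a mean of 35.5 CPM (counts scaled by library size, with trimmed-mean factors) in EYFP microglia with an SD of 1.68 over n = 4, against a mean of 34.9 with an SD of 2.76 over n = 3 in ATG7, and did not pass the test (edgeR adjusted p = 0.939). The labels do not say whether a library came from 1 mouse or a pool, so p-values measure the spread between these libraries.

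SLAM receptors are immunoglobulin-like proteins of leukocytes, and most of them bind the same receptor on a neighbouring cell. Ly9, Cd84 and Slamf7 carry cytoplasmic tyrosine motifs that recruit small SH2 adaptors of the SAP family, or phosphatases in their absence. Cd48 is held in the membrane by a lipid anchor and serves as the ligand of Cd244 and, in mice, of Cd2, while Slamf8 and Slamf9 have short tails without these motifs. In macrophages and microglia the family is known for tuning phagocytosis, the oxidative burst and contact with lymphocytes.

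Library totals ranged from 35934210 to 55217119 counts. The 5 microglia markers P2ry12, Tmem119, Cx3cr1, Sall1 and Siglech summed to between 8976 and 10579 CPM in EYFP and between 8773 and 10770.1 CPM in ATG7. Choroid plexus RNA was also abundant, with the 4 markers Ttr, Folr1, Kcnj13 and Aqp1 summing to between 35235 and 45411 CPM in EYFP and between 29587 and 38944 CPM in ATG7. All 4 had a log2 fold change below 0 (median -0.26), and 0 passed in edgeR and 0 in DESeq2. In edgeR 1 had an unadjusted p under 0.05, where 2300 of all 19199 genes tested had one. The groups did not overlap for Aqp1, at 193.0 to 295.9 CPM in EYFP and 170.7 to 192.7 CPM in ATG7 (edgeR adjusted p = 0.286). EYFP 3 stood apart from its label: the series describes the mice as male, yet this library had 938.0 CPM of Xist, against 0.150 to 0.573 CPM in the other 6. Values without EYFP 3 are therefore given for the members. Of 19199 genes tested over all 7 libraries, 145 differed between ATG7 and EYFP by the quasi-likelihood test of edgeR with an adjusted p (Benjamini-Hochberg) under 0.05, or 0.755%, with 0.688% higher and 0.0677% lower in ATG7. This count was 277 without EYFP 1, 94 without EYFP 2, 30 without EYFP 4 or ATG7 3, 28 without ATG7 2 and 0 with the replicate number as a block. Without EYFP 3 it was 164, of which 117 were among the 145. The replicate block left few degrees of freedom. Under it EYFP 4, without an ATG7 library of its number, added nothing to the difference.

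All 6 members lie on chromosome 1 of GRCm38 and are protein-coding in GENCODE M21. In order along the chromosome, Ly9 (ENSMUSG00000004707, 171588624 to 171607410, minus strand), Slamf7 (171632403 to 171653035, minus strand), Cd48 (171682009 to 171705258, plus strand) and Cd84 (171839697 to 171890718, plus strand) form one cluster. Slamf9 (172475358 to 172478575, plus strand) and Slamf8 (172581758 to 172590568, minus strand) lie further along the same arm. To set the start regions of these receptors side by side, the 250 bases before the RefSeq transcription start (GRCm38.p6) were searched for 4 motifs on both strands, and an entry was found for 5 of the 6 members, all but Ly9. The motifs were GAGGAA (PU.1 core), the composite of an ETS and an IRF site (GGAA, any 2 bases, then GAAA), the core of the interferon-stimulated response element (TTTC, any 2 bases, then TTTC) and TTCNNNGAA (STAT site). Of these windows 3 are shown. That of Slamf8 was taken because it held a match to the interferon element. The window of Slamf9 held the PU.1 core, and Slamf9 is the member nearest to Slamf8 along the chromosome. That of Slamf7 was taken because its level differed like that of Slamf8. Matches are in capitals, and each sequence is written 5′ to 3′ on the gene's strand.
Slamf8 (chr1:172590569-172590818, minus strand): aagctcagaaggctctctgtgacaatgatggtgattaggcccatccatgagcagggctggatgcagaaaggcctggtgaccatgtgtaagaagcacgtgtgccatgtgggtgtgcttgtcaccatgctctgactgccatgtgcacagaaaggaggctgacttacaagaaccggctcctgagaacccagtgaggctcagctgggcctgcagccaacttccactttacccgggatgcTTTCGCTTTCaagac
Slamf9 (chr1:172475110-172475359, plus strand): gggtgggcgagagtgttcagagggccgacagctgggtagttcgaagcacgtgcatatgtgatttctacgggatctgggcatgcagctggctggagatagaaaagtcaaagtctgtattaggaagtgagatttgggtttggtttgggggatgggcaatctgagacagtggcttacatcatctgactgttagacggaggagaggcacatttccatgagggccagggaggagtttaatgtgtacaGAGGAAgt
Slamf7 (chr1:171649000-171649249, minus strand): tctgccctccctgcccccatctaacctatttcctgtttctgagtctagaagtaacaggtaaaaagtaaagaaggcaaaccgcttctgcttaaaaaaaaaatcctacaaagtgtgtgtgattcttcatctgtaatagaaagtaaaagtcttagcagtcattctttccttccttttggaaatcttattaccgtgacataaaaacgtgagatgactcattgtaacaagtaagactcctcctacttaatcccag

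The match in Slamf8 spanned bases 236 to 245 of the window and read TTTCGCTTTC. Windows with the interferon element made up 2.98% of the 32851 start regions in the RefSeq table. GAGGAA at bases 243 to 248 of the Slamf9 window is a commoner string, found in 23.3% of all windows. The other motifs, in 2.30% of windows for the composite site and 7.02% for TTCNNNGAA, were not found in the 5 windows, and those of Cd48, Cd84 and Slamf7 held none of the 4. The RefSeq start of Slamf7 lies inside the GENCODE M21 gene, whose longest model begins further upstream. A match of letters is a description and does not show that a factor binds.

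Ly9, a receptor that binds itself on other cells, showed the widest gap between the groups among the 6 members on the log2 scale. Its level was 31.7, 27.1, 23.7 and 31.1 CPM in EYFP 1 to 4 and 54.2, 58.2 and 58.6 CPM in ATG7 1 to 3. Every ATG7 library lay above every EYFP library, and the lowest ATG7 value exceeded the highest EYFP value by more than the whole range within EYFP. The means were 28.4 ± 3.75 CPM (SD, n = 4) and 57.0 ± 2.45 CPM (SD, n = 3). The log2 fold change was 1.01 (standard error, SE, 0.0997), or 2.01-fold. In bulk libraries more cells of a type and more RNA per cell, or fewer and less, cannot be told apart. Without EYFP 3, which had the lowest Ly9 of the 7 libraries, the log2 fold change was 0.92. These values rest on between 1070 and 3200 counts a library, far above the floor of 3 counts, which corresponds to between 0.0546 and 0.0819 CPM. The gene body of Ly9 overlaps that of Cd244a on the opposite strand, but their exons share 0 bases.

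**Figure D1:**
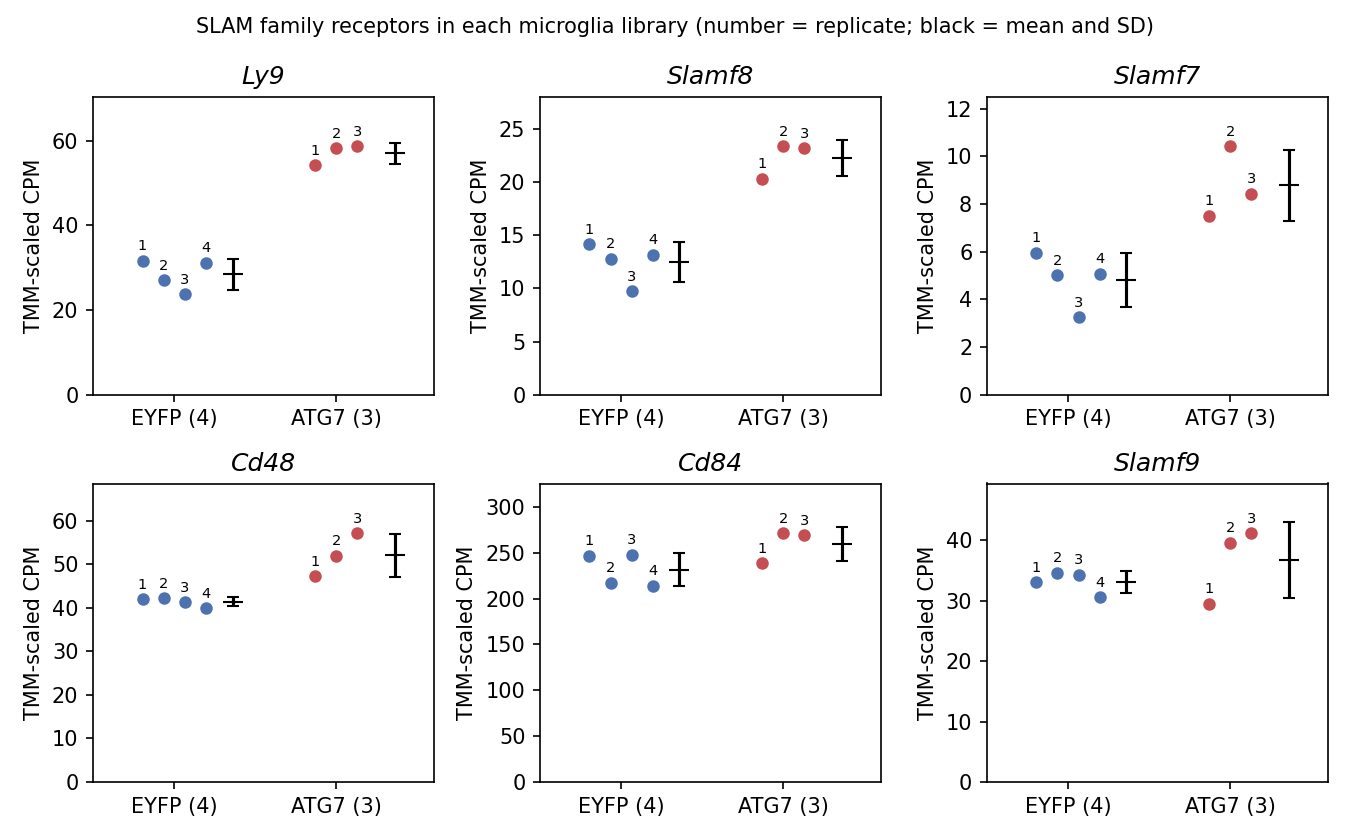
Level of each SLAM family receptor (TMM-scaled CPM, linear axis from 0) in the 4 EYFP and 3 ATG7 libraries, with points numbered by replicate and black bars showing the mean and SD. In Ly9, Slamf8, Slamf7 and Cd48 the 3 ATG7 libraries lie above all 4 EYFP libraries, and in Cd84 and Slamf9 the groups overlap.

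Slamf8, a short-tailed receptor known in macrophages for restraining the NADPH oxidase, was less abundant than Ly9 per length of exon. It measured 14.1, 12.8, 9.75 and 13.2 CPM in EYFP 1 to 4 and 20.3, 23.4 and 23.2 CPM in ATG7 1 to 3. The groups did not overlap, and EYFP 3 was again the lowest library. The log2 fold change was 0.84 (SE 0.124), or 1.79-fold, and 0.73 without EYFP 3.

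Slamf7, a self-binding receptor that promotes phagocytosis together with the integrin Mac-1, was the least abundant member. It stood at 5.95, 5.01, 3.26 and 5.08 CPM in EYFP 1 to 4 and at 7.52, 10.4 and 8.42 CPM in ATG7 1 to 3. Here too the groups did not overlap, although the gap between EYFP 1 and ATG7 1 was narrow beside the spread within ATG7. The log2 fold change was 0.87 (SE 0.197), or 1.83-fold, and 0.71 without EYFP 3. Its exons share 423 bases with those of the antisense gene Gm37787, and whether counting used strand is not given in the sources used here. That antisense gene had between 4 and 9 counts a library, against 147 to 573 counts for Slamf7.

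Cd48, the lipid-anchored ligand, was steady within EYFP at 42.0, 42.1, 41.3 and 39.9 CPM and spread more within ATG7 at 47.2, 51.9 and 57.1 CPM. The groups did not overlap, and the difference was smaller than in the receptors above, with a log2 fold change of 0.33 (SE 0.0760), or 1.26-fold, and the same value without EYFP 3.

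Cd84, a self-binding receptor and the most abundant member by counts, overlapped between the groups. Its levels were 246.8, 217.4, 247.5 and 213.8 CPM in EYFP 1 to 4 and 238.2, 271.2 and 268.9 CPM in ATG7 1 to 3. ATG7 1 lay below EYFP 1 and EYFP 3, and the log2 fold change was 0.17 (SE 0.0866), and 0.19 without EYFP 3. Slamf9, the other short-tailed receptor, also overlapped. It measured 33.1, 34.6, 34.3 and 30.6 CPM in EYFP 1 to 4, and 29.5, 39.6 and 41.2 CPM in ATG7 1 to 3. ATG7 1 was the lowest of the 7 libraries for Slamf9, and the log2 fold change was 0.15 (SE 0.110), and 0.16 without EYFP 3. It rested on single ATG7 libraries, at 0.29 without ATG7 1, 0.09 without ATG7 2 and 0.06 without ATG7 3, and was 0.10 with the replicate number as a block.

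Thus 4 of the 6 members had groups that did not overlap, all with ATG7 above EYFP, a pattern found in 6.33% of the 19199 genes tested, and 11.2% did not overlap in either direction. Ly9 and Slamf8 were the 2 members among the genes called at an adjusted p under 0.05 (edgeR), where 0.688% of all genes were called as higher. The call of Slamf8 ended without EYFP 4, ATG7 2 or ATG7 3. With the replicate number as a block 0 of all genes were called, so the end of both calls there is not particular to these 2 members. With the DESeq2 Wald test 4 of the 6 were called, against 3.26% of genes. Since this contrast was used to choose the members, nothing is read from these counts. The median log2 fold change was 0.59 over the 6 members and -0.00365 over all genes tested. Within each group the members had places in common: ATG7 1 was the lowest ATG7 library for all 6, and EYFP 3 was the lowest EYFP library for Ly9, Slamf7 and Slamf8 while EYFP 4 was the lowest for the other 3. The ordering of libraries is given as seen and was not tested.

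Levels can be compared between genes only per length of exon. On that scale Cd84 and Cd48 were the most abundant members in EYFP, at 36.9 ± 2.91 and 34.8 ± 0.858 CPM per kilobase (SD, n = 4), and their ranges over libraries overlapped (34.1 to 39.5 and 33.6 to 35.4). Slamf9 followed at 25.3 ± 1.39, then Ly9 at 8.59 ± 1.13, Slamf8 at 4.05 ± 0.616 and Slamf7 at 1.05 ± 0.247 CPM per kilobase (SD, n = 4), with no overlap between neighbours below Cd48. In ATG7 the order of Slamf9, Ly9, Slamf8 and Slamf7 was the same, and Ly9 stood at 17.2 ± 0.740 CPM per kilobase (SD, n = 3). Of the summed level per length of the 6 genes, Ly9 made up 6.44% to 8.90% in the EYFP libraries and 11.9% to 13.1% in the ATG7 libraries. The share of Cd84 was 31.5% to 35.4% in EYFP and 28.7% to 30.4% in ATG7. All shares in ATG7 lay above those in EYFP for Ly9, Slamf7 and Slamf8 and below them for Cd84 and Slamf9, and those of Cd48 overlapped. This measure has no share over all genes beside it. Since the contrast chose the members, nothing is read from it. Shares of a fixed total fall when others rise. The levels of Cd84 and Slamf9 themselves overlapped between the groups and had log2 fold changes above 0. The lengths are those of all exons in GENCODE M21, and transcripts in use may be shorter.

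Slamf1, Slamf6 and Cd244a, the remaining receptors of the family, were tested in the same fit. Cd2, a receptor for Cd48 that is not counted here as a SLAM receptor, was listed with them. The choice of members did not use these 4 genes, but their list was drawn up with earlier results of these data known. None of the 4 passed at an adjusted p under 0.05 (edgeR). An unadjusted p under 0.05 (edgeR) with ATG7 higher was found for Slamf6, Cd244a and Cd2, where 6.27% of all genes had one. DESeq2 called Slamf6 and Cd2, against 3.26% of genes. In these 2 the groups did not overlap, with ATG7 higher, against 6.33% of all genes. Slamf6, a self-binding receptor whose gene neighbours Cd84, measured 15.2, 13.5, 14.1 and 13.9 CPM in EYFP 1 to 4 and 17.6, 20.6 and 20.3 CPM in ATG7 1 to 3. Its groups did not overlap, and its log2 fold change was 0.46 (SE 0.0924) with an adjusted p of 0.05001 (edgeR), just above the threshold. Over the 14 other settings its adjusted p ran from 0.00105 to 0.482, so the call rests on the setting.

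Cd244a, the receptor for Cd48, had 4.45, 2.70, 2.46 and 3.92 CPM in EYFP and 4.02, 7.17 and 5.63 CPM in ATG7, with ATG7 1 below EYFP 1 (log2 fold change 0.74, SE 0.249, edgeR adjusted p = 0.262). Slamf1, the self-binding receptor that gave the family its name, lay between 3.16 and 5.73 CPM in EYFP and between 3.37 and 4.47 CPM in ATG7. Its log2 fold change was -0.08 (SE 0.209, edgeR adjusted p = 0.922), and the sign turned to 0.07 without EYFP 1 and 0.04 without ATG7 1. Cd2, a receptor of T and NK cells that binds Cd48, was scarce at 0.222 to 0.491 CPM in EYFP and 0.799, 0.855 and 1.87 CPM in ATG7. The groups of Cd2 did not overlap (log2 fold change 1.56, SE 0.394, edgeR adjusted p = 0.122).

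Of the 3 adaptors that read the tyrosine motifs, 1 passed the low-count filter. Sh2d1a, which encodes SAP, was listed at 0 in EYFP 3 and EYFP 4 and reached 0.301 CPM in ATG7 3. Sh2d1b2 had at most 0.0999 CPM, and neither gene passed the filter. Sh2d1b1, which encodes an EAT-2 adaptor, was the measured adaptor with a mean of 1.53 CPM in EYFP (SD 0.533, n = 4) and 1.98 CPM in ATG7 (SD 0.418, n = 3; log2 fold change 0.37, edgeR adjusted p = 0.695).

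**Figure D2:**
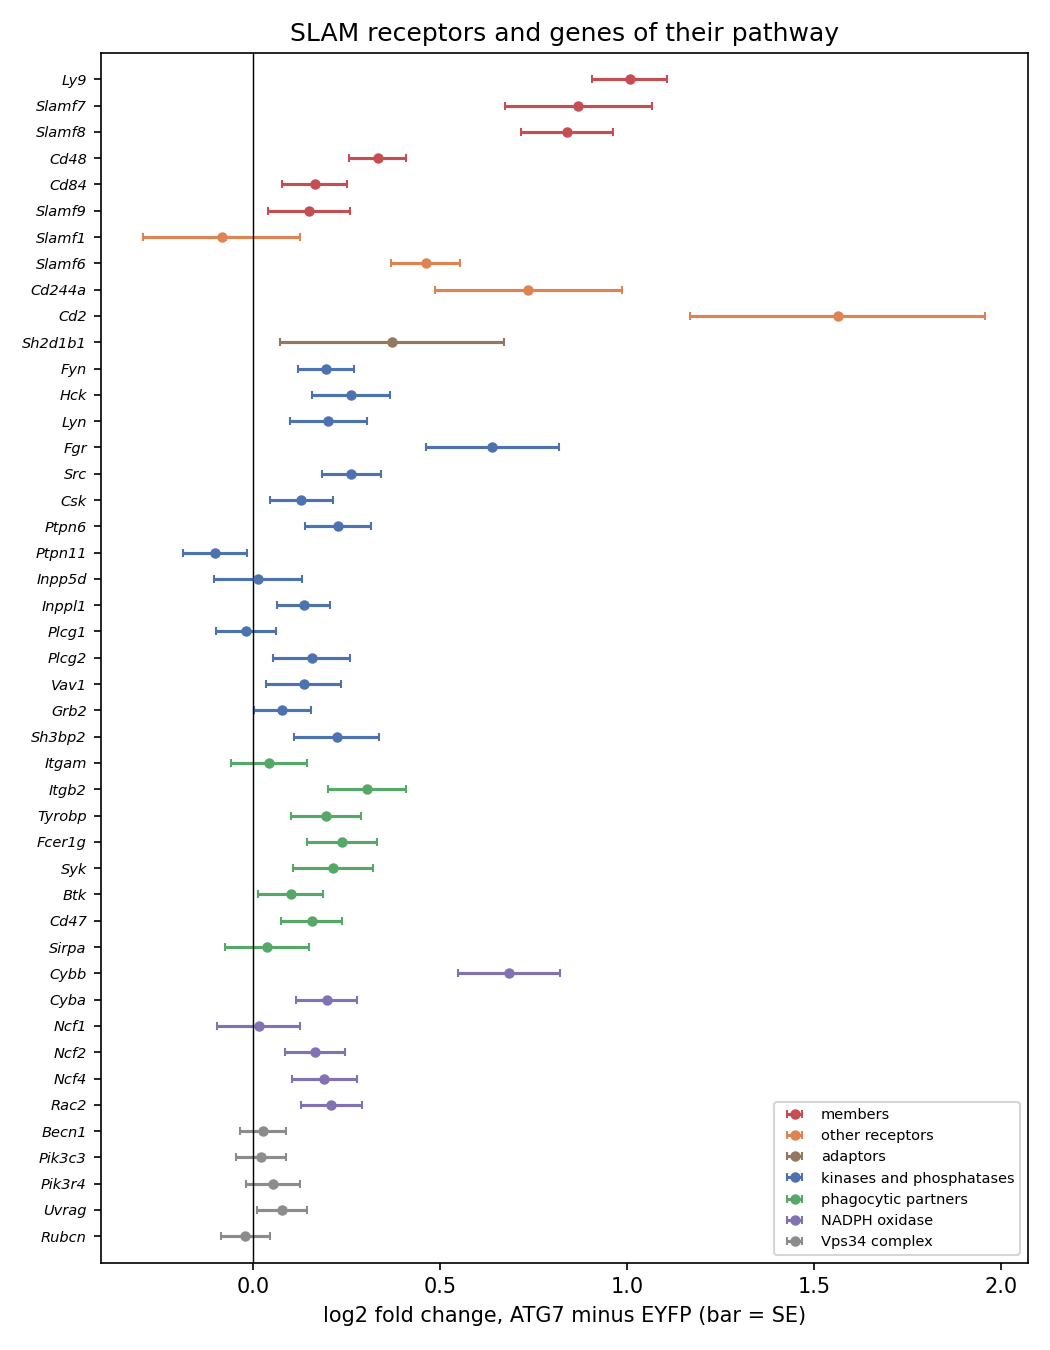
Log2 fold change of ATG7 over EYFP with its SE for the 6 members and the 39 measured partner genes, coloured by list. Ly9, Slamf7 and Slamf8 lie between 0.84 and 1.01, and the Vps34 complex genes lie within 0.08 of 0.

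Among the kinases, phosphatases and adaptors below the receptors, 0 of 15 passed (edgeR) and DESeq2 called Fgr alone, against 3.26% of genes. An unadjusted p under 0.05 (edgeR) was found for 5, all with a positive log2 fold change, against 6.27% of all genes. Fgr, a Src-family kinase of myeloid cells, had the smallest p of this list. Its mean was 6.18 CPM in EYFP (SD 0.971, n = 4) and 9.61 CPM in ATG7 (SD 2.11, n = 3), and the log2 fold change was 0.64 (SE 0.178, edgeR adjusted p = 0.162). The median log2 fold change of the list was 0.16.

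Genes that promote or restrain phagocytosis, listed beside Slamf7 and the integrin Mac-1 (Itgam, Itgb2, Tyrobp, Fcer1g, Syk, Btk, Cd47 and Sirpa), gave 0 of 8 calls in edgeR and 0 in DESeq2. In edgeR 2 had an unadjusted p under 0.05 with ATG7 higher, against 6.27% of all genes. All 8 had a log2 fold change above 0, where 49.2% of all genes did, and the median was 0.18. Itgb2, the beta chain of Mac-1, had the smallest p, with a mean of 317.0 CPM in EYFP (SD 30.9, n = 4) and 391.4 CPM in ATG7 (SD 44.2, n = 3) and a log2 fold change of 0.30 (SE 0.103, edgeR adjusted p = 0.262).

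Of the NADPH oxidase genes, 0 of 6 passed (edgeR) and DESeq2 called Cybb, against 3.26% of genes. In edgeR 4 had an unadjusted p under 0.05 with ATG7 higher, against 6.27% of all genes. Cybb, the catalytic subunit of the phagocyte oxidase, measured 75.6, 73.7, 53.2 and 60.6 CPM in EYFP 1 to 4 and 87.5, 110.5 and 119.0 CPM in ATG7 1 to 3. The groups of Cybb did not overlap, with ATG7 higher, against 6.33% of all genes. Its log2 fold change was 0.68 (SE 0.137, edgeR adjusted p = 0.0571), and its adjusted p over the 14 other settings ran from 0.000270 to 0.435. In the Vps34 lipid kinase complex, which some SLAM receptors engage on phagosomes and which serves autophagy, 0 of 5 genes passed or had an unadjusted p under 0.05 (edgeR), and DESeq2 called 0. Uvrag had the smallest p of that list (log2 fold change 0.08, SE 0.0659, edgeR adjusted p = 0.712). Over the 39 measured partner genes together the median log2 fold change was 0.17.

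The genes within 250 kb of a member were tested to set the members beside their surroundings. Of 61 such annotated genes 35 passed the low-count filter, and 0 of these 35 passed the test (edgeR). An unadjusted p under 0.05 was found for 5 of the 35, where 2300 of all 19199 genes tested had one. Of these 5, 4 were higher in ATG7, where 6.27% of all genes were. DESeq2 called 2 (Slamf6 and Nectin4), against 3.26% of genes. The median log2 fold change of the 32 tested neighbours outside the SLAM family was 0.07, with a range of -0.42 to 1.19. Slamf6, given above, had the smallest p of the neighbours. Nectin4, an adhesion molecule, was singled out after its values were seen and had a mean of 49.1 CPM in EYFP (SD 4.06, n = 4) and 65.7 CPM in ATG7 (SD 7.66, n = 3; log2 fold change 0.42, SE 0.0925, edgeR adjusted p = 0.0751). The value of 1.19 belonged to Gm37010, which lies within the body of Cd48 and had between 1 and 19 counts a library (SE 0.564, edgeR adjusted p = 0.445), and it was named after its values were seen. Along the stretch, Ly9, Slamf7 and Slamf8 had log2 fold changes of 0.84 to 1.01, while Cd48, Cd84 and Slamf9, which lie between Slamf7 and Slamf8, had 0.15 to 0.33.

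**Figure D3:**
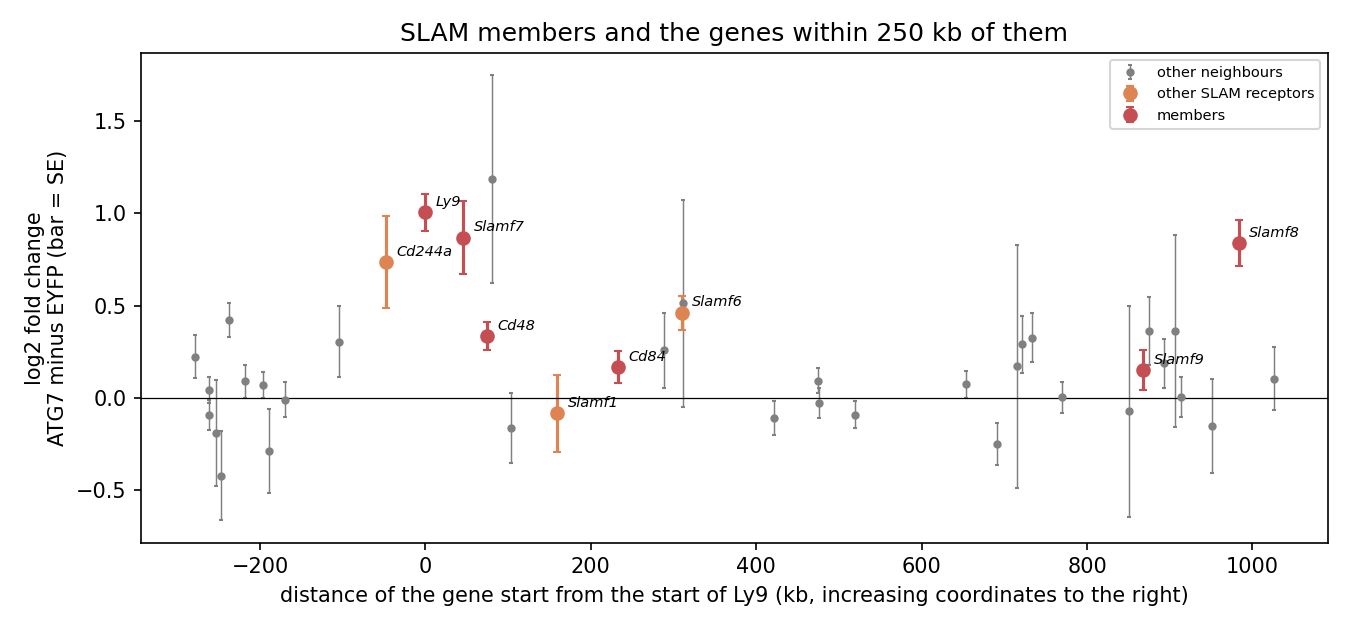
Log2 fold change of ATG7 over EYFP with its SE, against the distance of each gene's start from the start of Ly9 in kilobases, for the members, the other SLAM receptors and the remaining tested neighbours. Ly9 at 1.01 and Slamf8 at 0.84 are the first and the last member along the axis, with other neighbours outside them, and the neighbour at 1.19 has a wide SE.

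Several SLAM receptors are also made by lymphocytes, so lymphocyte markers were measured beside them. Of 8 T cell markers (Cd3e, Cd3d, Cd3g, Trac, Cd8a, Cd4, Lck and Cd5), 1 passed as higher in ATG7 (edgeR), against 0.688% of all genes. DESeq2 called 4 of them (Cd3d, Cd8a, Lck and Trac), against 3.26% of genes. An unadjusted p under 0.05 (edgeR) with ATG7 higher was found for 7 of the 8, against 6.27%. For 7 of the 8 the groups did not overlap, all with ATG7 higher, against 6.33%. The median log2 fold change of the list was 1.63. Lck, the T cell receptor kinase, rose from a mean of 0.823 CPM in EYFP (SD 0.172, n = 4) to one of 2.51 CPM in ATG7 (SD 0.599, n = 3), and its log2 fold change was 1.61 (SE 0.255, edgeR adjusted p = 0.0192). Its adjusted p was 0.0759 without EYFP 4, 0.0832 without ATG7 2 and 0.115 without ATG7 3. Cd3e, a chain of the T cell receptor complex, was at 0.177 to 0.540 CPM in EYFP and at 0.624, 0.637 and 1.65 CPM in ATG7.

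The whole list summed to between 8.20 and 13.03 CPM in EYFP and between 15.3 and 26.1 CPM in ATG7, and no marker of it was at 0 in any library. Without Cd4, the most abundant of the 8, the sum was 3.63, 4.77, 2.13 and 4.27 CPM in EYFP 1 to 4 and 7.67, 8.53 and 17.0 CPM in ATG7 1 to 3. This sum was highest in ATG7 3, and in all 3 ATG7 libraries it lay above every EYFP library, as the level of Ly9 did. Without ATG7 3 the log2 fold change of Ly9 was 0.98. The part of lymphocyte RNA in the Ly9, Slamf6 and Cd2 values was not tested.

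The 5 NK cell markers (Ncr1, Klrb1c, Nkg7, Gzma and Prf1) summed to between 2.24 and 5.73 CPM in EYFP and between 4.64 and 10.8 CPM in ATG7, with overlap. Of the 5, 0 passed in edgeR and DESeq2 called 1, against 3.26% of genes. In edgeR 2 had an unadjusted p under 0.05 with ATG7 higher, against 6.27% of all genes. Of the 4 B cell markers Cd79a, Cd79b, Ms4a1 and Ighm, Ms4a1 had at most 0.414 CPM and was listed at 0 in ATG7 1. The B cell sum, carried by Ighm, overlapped between the groups at 233.0 to 264.7 CPM in EYFP and 204.8 to 259.6 CPM in ATG7. Monocyte and border macrophage markers summed to between 503.4 and 603.9 CPM in EYFP and between 543.2 and 622.4 CPM in ATG7. Of these 7 markers 0 passed in edgeR and 0 in DESeq2. In edgeR 1 had an unadjusted p under 0.05 with ATG7 higher, against 6.27% of all genes. Border macrophage genes such as Mrc1 carry that sum. The monocyte marker Ly6c2, named after its values were seen, was at 1.55 to 4.40 CPM in EYFP and at 3.02, 6.40 and 13.5 CPM in ATG7 1 to 3 (log2 fold change 1.47, SE 0.528, edgeR adjusted p = 0.330). Dendritic cell markers summed to between 23.9 and 30.7 CPM in EYFP and between 28.4 and 37.8 CPM in ATG7, also overlapping. The summed neutrophil markers ran from 25.1 to 60.0 CPM in EYFP and from 15.5 to 95.9 CPM in ATG7, and those of endothelial cells from 272.5 to 434.8 CPM and from 350.6 to 694.3 CPM, both highest in ATG7 3. Neuron, astrocyte and oligodendrocyte sums also overlapped, at 3.74 to 20.1, 169.8 to 439.6 and 135.8 to 409.1 CPM in EYFP and at 6.04 to 7.19, 222.2 to 297.7 and 164.9 to 268.1 CPM in ATG7. A log2 fold change above 0 was found for 0 of 6 neuron, 0 of 5 oligodendrocyte and 2 of 5 astrocyte markers. It was found for 4 of 4 endothelial and 5 of 5 dendritic cell markers, where 49.2% of all genes had one. In edgeR 1 astrocyte marker, lower in ATG7, and 1 endothelial marker, higher in ATG7, had an unadjusted p under 0.05. None of these markers passed in edgeR or DESeq2.

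**Figure D4:**
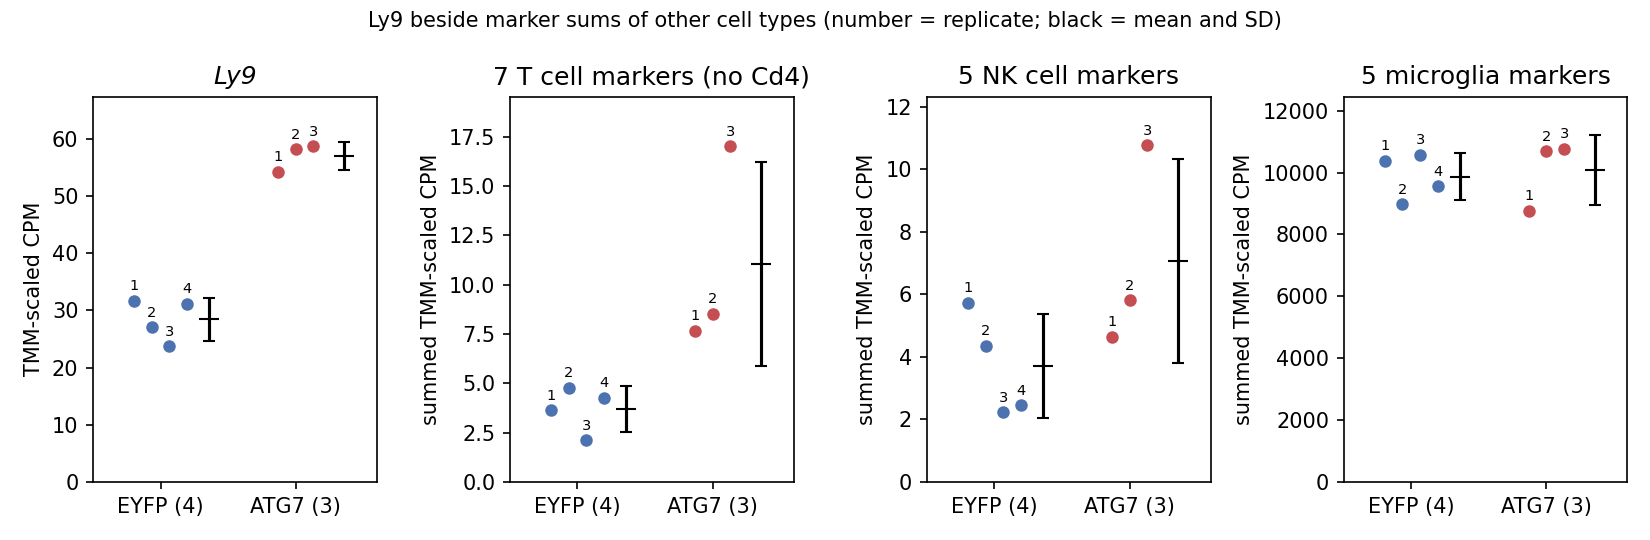
Level of Ly9 and the summed levels of 7 T cell markers (Cd4 left out), 5 NK cell markers and 5 microglia markers in each library (TMM-scaled CPM, linear axes from 0; numbers are replicates, black bars the mean and SD). For Ly9 and for the T cell sum the 3 ATG7 libraries lie above all 4 EYFP libraries. In ATG7 1 to 3 the T cell sum is 7.67, 8.53 and 17.0 CPM, and Ly9 is 54.2, 58.2 and 58.6 CPM.

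To place Ly9 among all genes, the log2 CPM of each gene was centred on its mean over the 7 libraries, and genes were ranked by their mean absolute difference from Ly9 among 15048 other tested genes with a mean of at least 1 CPM. Of the nearest 5, the 4 described here were Stat2 (mean absolute difference 0.0770 on the log2 scale), Slamf8 (0.0865), Clec7a (0.0942) and Cd22 (0.105). Stat2 encodes a transcription factor activated by interferon receptors, Clec7a a lectin receptor for fungal glucans, and Cd22 an inhibitory sialic acid receptor. Their log2 fold changes lay between 0.84 for Slamf8 and 1.00 for Cd22. These 4 share with Ly9 a minimum in EYFP 3 and 3 high ATG7 libraries. The ranking uses the same libraries and the same contrast as the choice of members, and it describes likeness of levels only.

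**Figure D5:**
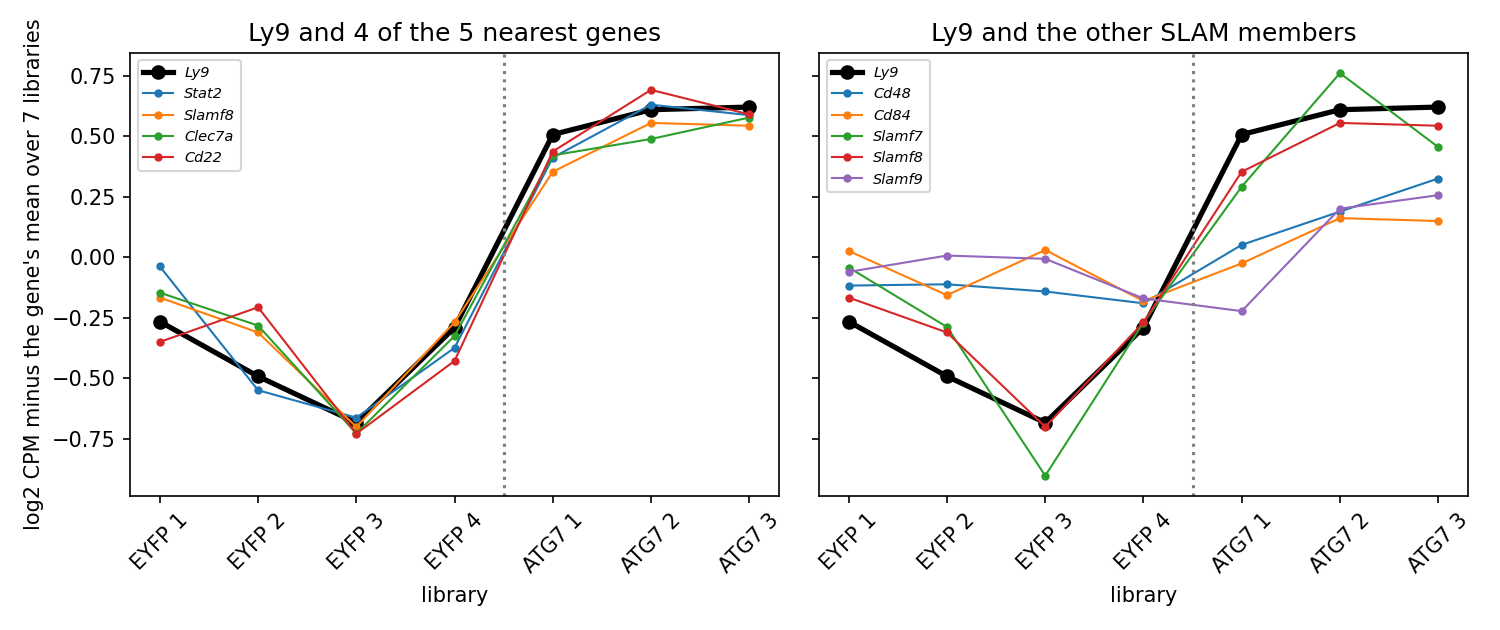
Log2 CPM of each gene minus its own mean over the 7 libraries, for Ly9 with 4 of the 5 nearest genes (left) and with the other SLAM members (right); lines only join the values of a gene, and the dotted line parts EYFP from ATG7. The 4 genes lie close to Ly9 in each library, and Cd48, Cd84 and Slamf9 are flatter.

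Among the other members by the same measure, Slamf8 ranked 2 and Slamf7 ranked 53 of 15048 (mean absolute difference 0.171). Cd48 ranked 594 (0.335), Cd84 ranked 1958 (0.415) and Slamf9 ranked 2465 (0.430). Slamf8 and Slamf7 were thus nearer to Ly9 over the libraries than the flatter Cd48, Cd84 and Slamf9 were.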

How the data were processed

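Microglial RNA from 4 EYFP and 3 ATG7 libraries was counted per gene. The authors deposited raw counts. The submitters' processing notes name fastp 0.20.1, HISAT2 2.0.5, featureCounts and the builds mm10 and GRCm38, and strand and shared-read settings are not given in the sources used here. GENCODE M21 on GRCm38 gave a symbol to 55141 of 55401 identifiers, all 6 members among them. The 37 mitochondrial genes were listed at 0, so totals exclude them, and the number of unmatched columns was 0.

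ATG7 was compared with EYFP by the quasi-likelihood test of edgeR 4.0.16 (limma 3.58.1, R 4.3.3) with TMM factors, filterByExpr, robust dispersions, no covariate and two-sided Benjamini-Hochberg adjustment over 19199 genes. The filter kept all 6 members. SE is the absolute log2 fold change over the square root of F. Log2 CPM used a prior count of 2. Alternatives were size factors of DESeq2 1.42.0, its Wald test, library size alone, other filters, the replicate number as a block and leaving out each library. The floor of 3 counts covers counting error only, as no molecular identifiers are named in the labels. Pairs of replicates differed by 19.2 to 41.3 in chi-square per degree of freedom, so none was counted as a duplicate.

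Members, partner lists, markers and tests were chosen with earlier results of these data known. Named were all members, other receptors and adaptors, the passing or else the lowest-p gene of each other list and of the neighbours, and the 5 genes nearest Ly9, except 1 that is not reported here, like 2 of the markers; other names were chosen after values were seen. The code was tested on simulated data with 200 changed genes. At an adjusted p under 0.05 (edgeR) it called 54.0% of those changed 1.5-fold, 79.5% of 2-fold and 94.5% of 3-fold. Unchanged genes made up 12.9%, 7.56% and 6.44% of the calls, each above the share that the threshold of 0.05 sets. Each fold rested on a single draw, and changed genes were taken from those with a mean of at least 1 CPM.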

Additional observations from a re-analysis of the deposited data

How the results depend on the processing

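Over all genes, calls came to 297 without the filter (78.8% higher in ATG7, against 91.0% in the reported fit), 572 with DESeq2 (70.6% higher) and 0 with the replicate block; leaving out a library gave 28 (without ATG7 2) to 277 (without EYFP 1), with 94 without EYFP 2 and 30 without EYFP 4 or ATG7 3. The members were chosen on this contrast, so their calls are a description and support nothing. Of them, 4 were called with no filter and 4 with DESeq2 (Ly9, Slamf8, Slamf7 and Cd48 in both), and 0 with the replicate block; leaving out a library gave 1 to 3, with Slamf8 lost without EYFP 4, ATG7 2 or ATG7 3 and Slamf7 gained without EYFP 1. The log2 fold change kept its sign in all 6 members under all 14 settings, from 0.92 to 1.06 in Ly9, 0.71 to 0.98 in Slamf7, 0.73 to 0.91 in Slamf8, 0.26 to 0.40 in Cd48, 0.13 to 0.22 in Cd84 and, the one range that left the reported value by over 1.5 times, 0.06 to 0.29 in Slamf9.

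Of the partner genes, 4 were called with no filter and 4 with DESeq2 (Slamf6, Cybb, Fgr and Cd2 in both), 1 with a mean CPM of at least 1 (Slamf6), and 2 on leaving out the rows of Ttr and Enpp2, a setting chosen after seeing the data (Slamf6 and Cybb); leaving out a library gave 0 to 2. Of the neighbours, 2 were called with no filter, 2 with DESeq2, 1 with a mean CPM of at least 1 and 1 without Ttr and Enpp2; leaving out a library gave 0 to 2. The log2 fold change of Slamf1 ran from -0.21 to 0.0740 on leaving out a library, with positive values without EYFP 1 (0.0740) and without ATG7 1 (0.04). The cause of these shifts was not tested, and no scaling moved the median of all genes by as much as 0.1. Deviations from group means had correlations of -0.18 to 0.07 over the 3 pairs of same-numbered libraries. Differently numbered pairs ran from -0.15 (EYFP 1 with ATG7 3) to 0.22 (EYFP 1 with ATG7 2). With so few libraries these correlations cannot decide whether the numbers pair the samples. Under the replicate block 0 of all genes were called, so the absence of calls among members and partner genes there is not particular to them. Ly9 had a log2 fold change of 1.06 (SE 0.122) under the block. The edgeR adjusted p of Lck was 0.293 there.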
